A study of Homo sapiens with 12 samples.

Results

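The 9 genes described here are the metallothionein genes MT1A, MT1E, MT1F, MT1G, MT1H, MT1M, MT1X and MT2A and the gene of their metal-sensing activator, MTF1. They were taken by gene symbol from the deposited count tables, and each symbol matched 1 of 58302 genes. RNA sequencing covered 12 libraries from H1703 and H1299, 2 human cell lines of non-small cell lung cancer, with 3 libraries in each of 4 groups: H1703 with SAHA, H1703 with DMSO, H1299 with SAHA and H1299 with DMSO. SAHA (vorinostat) is a hydroxamate inhibitor of histone deacetylases, and DMSO at 0.1% was its solvent control. Exposure lasted 24 h. The labels list SAHA at 2.5, 10 and 40 µM without saying which dose the sequenced cells received. Each line is an established culture, so the groups describe 2 lines and not lung tissue, and nothing in the labels says that replicates were separate cultures. P-values then measure only the spread between these libraries, which may be technical.

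Metallothioneins are small cysteine-rich proteins that bind zinc, copper and cadmium and buffer free zinc in the cell. When zinc rises, the zinc-finger protein MTF1 moves to metal response elements in metallothionein promoters and in the promoter of the zinc exporter gene SLC30A1 and activates transcription. In human cells the genes lie in one cluster on chromosome 16, where MT2A and the MT1 genes are widely expressed and MT3 is known mainly from brain.

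In both lines the metallothionein mRNA was made mostly of MT2A, and MT2A, MT1X and MTF1 rose with SAHA. MT1X rose 6.15-fold in H1703 and 6.18-fold in H1299. MT2A rose 3.21-fold in H1703 and 1.61-fold in H1299. MT1F rose 4.05-fold in H1703 and stayed at 2 counts or fewer in every H1299 library. MT1E, MT1G, MT1H and MT1M had 0 counts in all 12 libraries.

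The 12 libraries held 14416126 to 19408852 counts on genes. Mitochondrial genes took 9.57 ± 1.19% of counts in H1703 with SAHA and 5.88 ± 0.418% with DMSO, and 4.10 ± 0.121% in H1299 with SAHA and 2.12 ± 0.138% with DMSO (SD, n = 3 each). Against the labelled epithelial lung origin, a list of 6 epithelial genes summed to 2609 to 3025 CPM in H1703 with SAHA and 3756 to 4163 CPM with DMSO, and to 1520 to 1689 CPM in H1299 with SAHA and 644.9 to 653.8 CPM with DMSO. Within that list the genes moved apart in H1703. KRT7 had 464.8 to 608.9 CPM with SAHA and 1950 to 2164 CPM with DMSO. KRT8 had 1314 to 1459 CPM with SAHA and 1092 to 1278 CPM with DMSO. KRT19 had 242.7 to 299.2 CPM with SAHA and 13.8 to 17.3 CPM with DMSO. KRT18 overlapped, at 556 to 721.9 CPM with SAHA and 605.1 to 723.8 CPM with DMSO. EPCAM also overlapped, at 1.511 to 2.576 CPM with SAHA and 1.916 to 3.374 CPM with DMSO. CDH1, the epithelial cadherin, had 26.41 to 29.88 CPM in H1703 with SAHA and 68.93 to 99.58 CPM with DMSO. In H1299 CDH1 was at 0 with DMSO and at most 0.2081 CPM with SAHA. The H1299 sum came almost wholly from KRT8 and KRT18. There KRT8 had 650.1 to 708.7 CPM with SAHA and 225.2 to 230.5 CPM with DMSO. KRT18 had 862 to 973 CPM with SAHA and 409.5 to 419.2 CPM with DMSO. KRT7 was at most 7.939 CPM in H1299, KRT19 at most 1.436 CPM and EPCAM at most 0.5041 CPM. The 5 lung epithelial markers together reached at most 5.09 CPM in any library. The 3 fibroblast markers summed to 98.9 to 110.8 CPM in H1703 with SAHA against 58.7 to 68.8 CPM with DMSO. In H1299 they summed to 35.4 to 50.4 CPM with SAHA against 1.13 to 2.35 CPM with DMSO. These sums did not reflect all members. In H1703 LUM had 41.62 to 49.41 CPM with SAHA and 4.27 to 5.182 CPM with DMSO. COL1A1 overlapped there, at 51.74 to 61.68 CPM with SAHA and 54.41 to 63.95 CPM with DMSO, and DCN was at most 1.597 CPM. In H1299 COL1A1 had 35.15 to 50.29 CPM with SAHA and 0.8821 to 1.772 CPM with DMSO. DCN and LUM were at most 0.6188 CPM in H1299. The 3 endothelial markers summed to at most 6.52 CPM and the 3 lymphoid markers to at most 1.00 CPM in any library. The part of these shifts in the results below was not tested.

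Metal response elements are the sequences through which MTF1 acts, so the promoters of the 2 metallothionein genes that carried most of the mRNA are shown with that of MT1H, a gene with no counts in these libraries. RefSeq (GRCh38.p14) had promoter entries for 4 of the 9 genes: MT2A, MT1X, MT1H and MTF1. The 250 bases before each RefSeq start, which for MT2A and MT1X lies further downstream than the start in the count tables, are printed 5′ to 3′ on the plus strand, with matches to the core TGCACNC or TGCGCNC on either strand in capitals. They lie at chr16:56608334-56608583 for MT2A, chr16:56682220-56682469 for MT1X and chr16:56669564-56669813 for MT1H.
MT2A: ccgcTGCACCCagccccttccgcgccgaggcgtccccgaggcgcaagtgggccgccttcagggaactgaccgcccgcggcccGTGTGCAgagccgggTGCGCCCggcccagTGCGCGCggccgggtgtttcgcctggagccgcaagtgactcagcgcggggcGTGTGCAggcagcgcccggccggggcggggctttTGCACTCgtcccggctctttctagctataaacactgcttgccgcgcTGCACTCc
MT1X: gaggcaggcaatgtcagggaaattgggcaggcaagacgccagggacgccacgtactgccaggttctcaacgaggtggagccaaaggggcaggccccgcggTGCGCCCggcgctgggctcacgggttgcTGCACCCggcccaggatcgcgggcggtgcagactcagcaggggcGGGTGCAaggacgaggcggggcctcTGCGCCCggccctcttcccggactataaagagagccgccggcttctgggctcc
MT1H: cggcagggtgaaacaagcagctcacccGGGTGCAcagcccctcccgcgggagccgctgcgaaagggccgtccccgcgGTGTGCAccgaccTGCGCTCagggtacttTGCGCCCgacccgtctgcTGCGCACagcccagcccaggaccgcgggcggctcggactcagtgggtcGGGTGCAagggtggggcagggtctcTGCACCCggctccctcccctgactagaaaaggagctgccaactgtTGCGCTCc
Counted over 300 bases, which add 50 bases after the start, the MT2A promoter held 8 matches, of which 7 are in the printed stretch. MT1H also held 8 matches, MT1X held 4 and MTF1 held 0. Of 35116 human promoters searched in the same way, 29.6% held at least 1 match, 0.601% held 4 or more and 0.0199% held 8 or more. The matches in MT2A, MT1X and MT1H did not overlap one another. MT1H, with as many matches as MT2A, was without a single count.

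MT2A, the main metallothionein of most human cells, lies at 56608199 to 56609497 on chromosome 16 of GRCh38 (ENSG00000125148), as the tables give it. Its levels, as counts scaled to library size with TMM factors (CPM), were 1328, 879.4 and 1405 in H1703 with SAHA, against 397.9, 335.7 and 405.4 with DMSO. In H1299 they were 1171, 1162 and 1842 with SAHA, against 775.3, 852.8 and 873.7 with DMSO. In each line every SAHA library stood above every DMSO library, and the second SAHA library of H1703 was low and the third of H1299 high within its group. In H1703 MT2A rose by 1.68 ± 0.19 on the log2 scale (SE; edgeR quasi-likelihood test, adjusted p = 0.000241). In H1299 it rose by 0.68 ± 0.18 (edgeR adjusted p = 0.0115). Without the third SAHA library the H1299 change was 0.42, or 1.34-fold, and still called, while without the filter on low counts the call was lost (edgeR adjusted p = 0.0505, with a range over all alternatives of 0.000541 to 0.0505).

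MT1X (chromosome 16, 56682424 to 56684196, ENSG00000187193) lies at the far end of the cluster and codes for another zinc- and cadmium-binding metallothionein. It had 187.2, 245.2 and 205.3 CPM in H1703 with SAHA, against 33.9, 39.5 and 31.4 CPM with DMSO. H1299 libraries had 365.0, 421.2 and 440.3 CPM with SAHA, against 62.2, 59.7 and 69.04 CPM with DMSO. The groups were far apart in both lines, and H1299 was the higher line under either condition. MT1X rose by 2.62 ± 0.13 on the log2 scale in H1703 (edgeR adjusted p = 1.73e-07) and by 2.63 ± 0.10 in H1299 (edgeR adjusted p = 1.68e-07). Of 355 stretches of 50 bases in the MT1X transcript, 174 were absent from the transcripts of all other genes in GENCODE release 44, against 313 of 352 for MT2A. Part of these shared stretches belongs to an overlapping gene, AC026461.1, which had 0 counts.

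MT1F (chromosome 16, 56657694 to 56660698, ENSG00000198417) had counts in H1703 and almost none in H1299. Its levels were 33.8, 39.3 and 34.2 CPM in H1703 with SAHA and 10.8, 8.28 and 7.70 CPM with DMSO. H1299 libraries had 2, 2 and 1 counts with SAHA and 0 counts in each DMSO library, which is within the floor of 3 counts per library. MT1F rose by 2.02 ± 0.15 on the log2 scale in H1703 (edgeR adjusted p = 1.78e-06).

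MT1A (chromosome 16, 56638666 to 56640087, ENSG00000205362) was the lowest of the 4 MT1 and MT2 genes with counts among the 8 described. In H1703 it had 18, 23 and 37 counts with SAHA and 13, 7 and 14 counts with DMSO. In H1299 it had 0 counts in all 6 libraries. In CPM the H1703 groups did not overlap, with 1.20, 1.34 and 2.43 CPM with SAHA and 0.830, 0.408 and 0.963 CPM with DMSO. MT1A rose by 1.20 ± 0.42 on the log2 scale in H1703 (edgeR adjusted p = 0.0292), and this call was lost with DESeq2 (adjusted p = 0.0709) and in edgeR without the third SAHA library (1.76-fold, adjusted p = 0.126), the first DMSO library (2.45-fold, adjusted p = 0.0509) or the second DMSO library (1.85-fold, adjusted p = 0.103). Its adjusted p ran between 0.0228 and 0.126 over all alternatives.

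**Figure D1:**
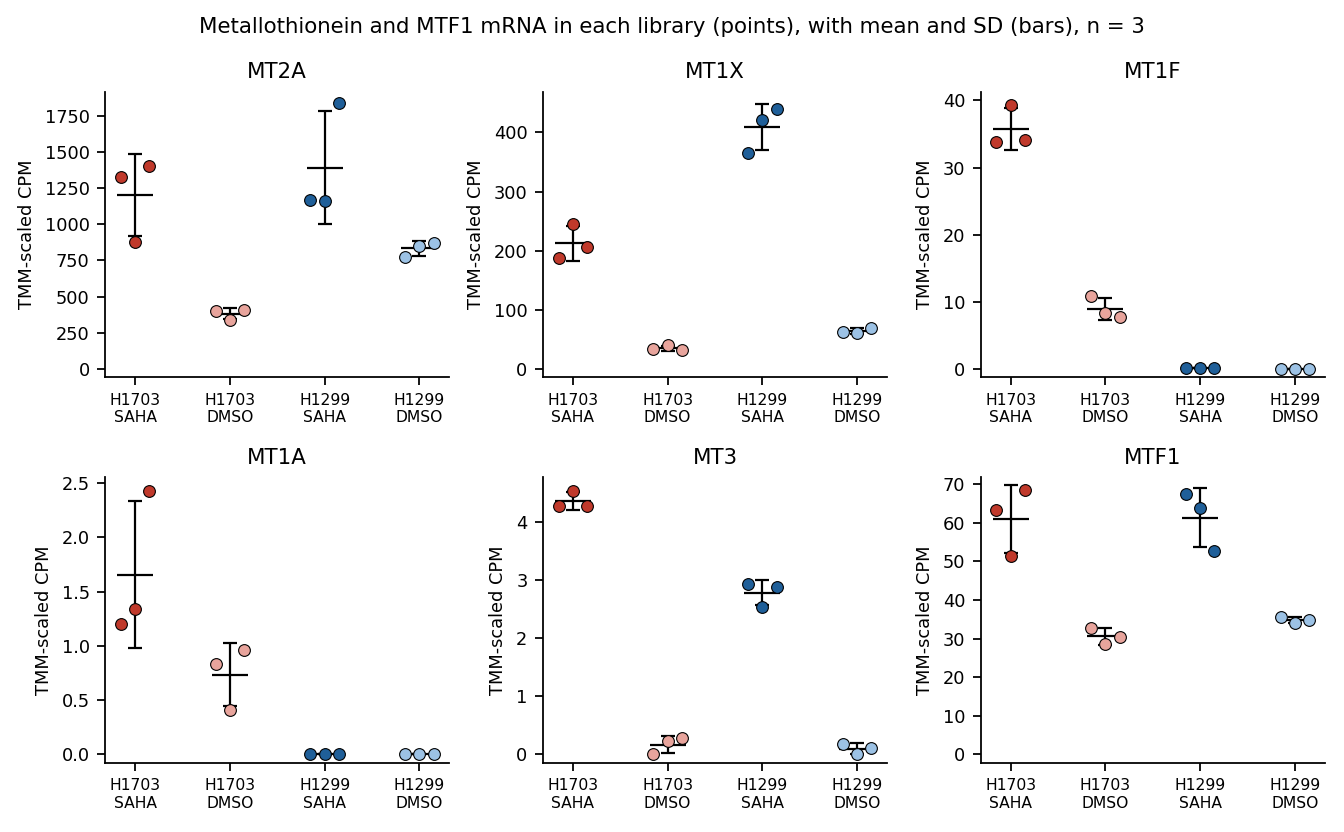
TMM-scaled CPM of 5 metallothionein genes and MTF1 in the 12 libraries, one point per library, with the group mean and SD (n = 3). SAHA libraries of MT2A, MT1X and MTF1 stood above the DMSO libraries in both lines, and MT1F and MT1A had counts above the floor in H1703 and not in H1299.

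MT1E, MT1G, MT1H and MT1M, the other MT1 genes, had 0 counts in each of the 12 libraries, with SAHA as with DMSO. The tables held 20242 genes with 0 counts in every library, 34.7% of all genes, but among protein-coding genes they were 1194 of 19817, or 6.03%. A count of 0 allows up to 0.155 to 0.208 CPM by library (3 counts; counting error only). At least 79.6% of the 50-base stretches of each of these 4 transcripts were absent from the transcripts of other genes, with the lowest share for MT1H and 89.7% as the highest for MT1E. The sources used here do not say how reads that match several metallothionein genes were counted, so a low level of these 4 genes cannot be told apart from reads given to their relatives.

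MTF1 (chromosome 1, 37809567 to 37859620, minus strand, ENSG00000188786), the transcription factor that senses zinc and drives metallothionein genes, changed less than MT1X. It had 63.2, 51.3 and 68.4 CPM in H1703 with SAHA, against 32.8, 28.5 and 30.5 CPM with DMSO. For H1299 the values were 67.4, 63.8 and 52.7 CPM with SAHA, against 35.7, 33.9 and 34.7 CPM with DMSO. The levels of both lines were close under each condition, and SAHA and DMSO libraries did not overlap. MTF1 rose by 1.01 ± 0.12 on the log2 scale in H1703 (edgeR adjusted p = 5.22e-05, 2.02-fold) and by 0.76 ± 0.11 in H1299 (edgeR adjusted p = 0.000257, 1.70-fold).

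Of the 9 genes, 5 rose with SAHA in H1703 and 4 were too low to test, and 3 rose in H1299 and 6 were too low to test. SAHA changed a large part of the transcriptome: 67.4% of 17273 genes tested were called in H1703, 34.7% higher and 32.6% lower, and 63.8% of 17277 in H1299, 33.3% higher and 30.4% lower. Of 15654 genes tested in both lines, 23.0% were called higher in both, as MT2A, MT1X and MTF1 were. The median log2 change over all genes tested was 0.018 in H1703 and 0.0156 in H1299.

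**Figure D2:**
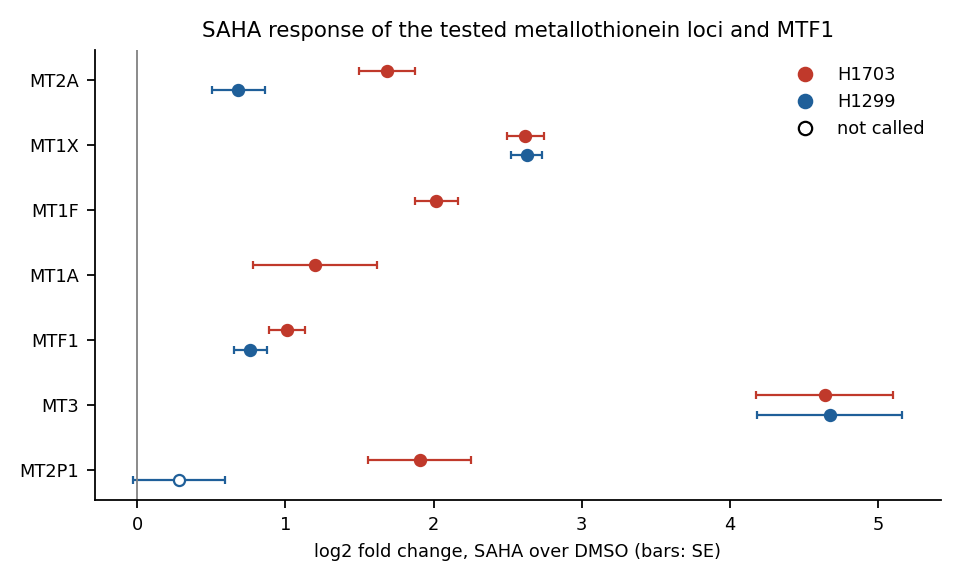
Log2 fold change of SAHA over DMSO with its SE for the metallothionein loci tested and MTF1, H1703 above H1299. MT1X lay at 2.62 and 2.63, MT2A at 1.68 in H1703 and 0.68 in H1299, and MT1F and MT1A were tested in H1703 alone.

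The H1703 and H1299 responses to SAHA were compared by their difference in 1 fit over the 12 libraries. For MT2A the H1703 response was larger by 0.93 ± 0.29 on the log2 scale (edgeR adjusted p = 0.0269). That call was lost without the filter on low counts (edgeR adjusted p = 0.0905) and without any 1 of 7 libraries: the first or the second SAHA library of H1299, the second or the third DMSO library of H1299, the first or the third SAHA library of H1703, or the second DMSO library of H1703, with a difference of 0.80 to 0.91 without those libraries and an adjusted p between 0.002 and 0.0905 over all alternatives. For MT1X the difference was -0.08 ± 0.16 (edgeR adjusted p = 0.76) and for MTF1 0.18 ± 0.17 (edgeR adjusted p = 0.451), neither of which passed. Of the 5 genes tested, MT2A was the 1 called, and the share called over all 19105 genes was 34.9%, made up of 13.7% with a higher and 21.2% with a lower change in H1703. For MT1F and MT1A no difference of responses can be read, because H1299 was at or under the floor in both conditions.

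With DMSO alone, H1703 had less MT2A and MT1X than H1299 and more MT1F and MT1A. MT2A averaged 379.7 ± 38.3 CPM in H1703 and 833.9 ± 51.9 CPM in H1299 (SD, n = 3 each), a 2.20-fold lower level in H1703 (edgeR adjusted p = 0.00045). MT1X averaged 35.0 ± 4.17 CPM in H1703 and 63.7 ± 4.84 CPM in H1299, 1.82-fold lower in H1703 (edgeR adjusted p = 1.72e-05). MT1F was at least 50.7-fold higher in H1703 (8.92 ± 1.64 CPM) than in H1299 (0 counts, set to 3 counts per library; edgeR adjusted p = 5.87e-10). MT1A was at least 4.16-fold higher in H1703 (0.734 ± 0.289 CPM) than in H1299 by the same floor (edgeR adjusted p = 0.000419), and with SAHA at least 9.11-fold higher, a value without a test. MT1F and MT1A passed the low-count filter through H1703 libraries alone, so the direction of their tests was fixed in advance. MTF1 averaged 30.6 ± 2.17 CPM in H1703 and 34.8 ± 0.867 CPM in H1299 and did not pass (log2 difference -0.19 ± 0.12, edgeR adjusted p = 0.183), although the libraries did not overlap. Of the 9 genes, 2 were called higher in H1703, 2 lower, 1 was not called and 4 were not tested, and 66.5% of all 19105 genes tested were called, 34.3% higher and 32.2% lower.

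Summed over the 8 metallothionein genes, H1703 had 1551, 1165 and 1647 CPM with SAHA and 443.4, 384.0 and 445.5 CPM with DMSO. H1299 had 1536, 1584 and 2282 CPM with SAHA and 837.5, 912.5 and 942.8 CPM with DMSO. The SAHA means were 3.43 times the DMSO mean in H1703 and 2.01 times in H1299. The DMSO mean of H1703 was 0.473 times that of H1299, while the SAHA libraries of both lines overlapped.

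The make-up of the sum differed between conditions. On the authors' FPKM scale, which divides by gene length, MT2A made 81.3 ± 5.82% of the 8 genes' sum in H1703 with SAHA and 88.2 ± 1.48% with DMSO, and 76.5 ± 3.72% in H1299 with SAHA and 92.8 ± 0.490% with DMSO (SD, n = 3 each). MT1X made 15.3 ± 5.08% in H1703 with SAHA and 8.36 ± 1.77% with DMSO, and 23.5 ± 3.72% in H1299 with SAHA and 7.20 ± 0.490% with DMSO. MT1F made 2.58% of the sum in H1703 with SAHA and 2.13% with DMSO, and MT1A took the small remainder. The lengths behind these FPKM values, recovered from the tables, were 3073 bases for MT2A and 3025 for MT1X, which is more than the genomic span of either gene. By counts per base of merged GENCODE exons, the MT2A share was 89.5% in H1703 with SAHA and 93.9% with DMSO, and 86.2% in H1299 with SAHA and 96.1% with DMSO, so its level depends on the length used, whereas the lower share with SAHA held on both scales.

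**Figure D3:**
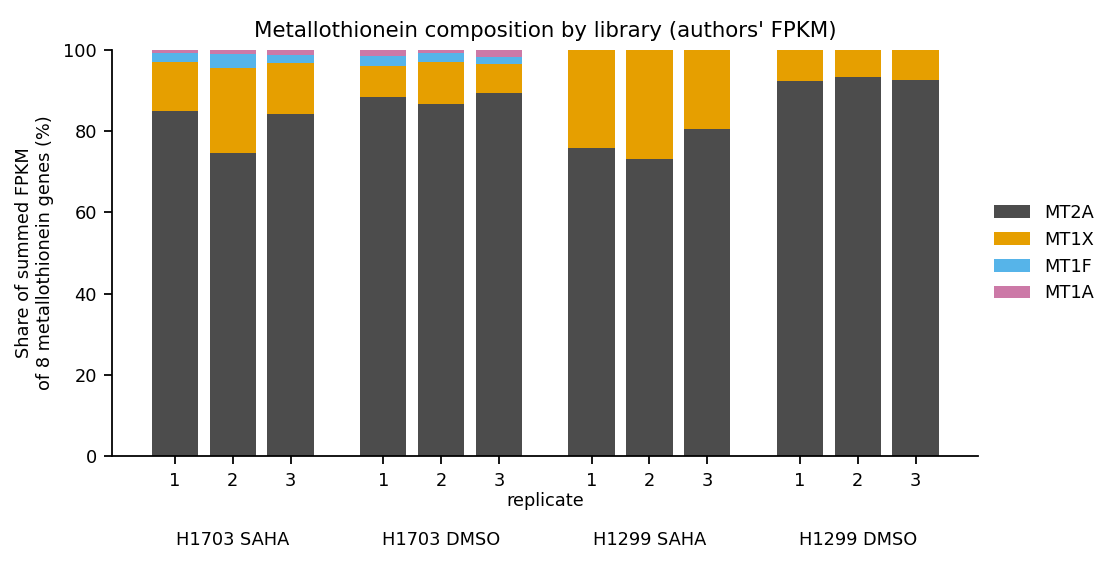
Share of the summed FPKM of the 8 metallothionein genes taken by each gene, 1 stacked bar per library. MT1X took more of the sum with SAHA than with DMSO in every library of both lines, and MT1F and MT1A segments are visible in H1703 alone.

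The ratio of MT1X to MT2A counts needs no scaling between libraries. It was 0.141, 0.279 and 0.146 in H1703 with SAHA, against 0.0852, 0.118 and 0.0775 with DMSO. It was 0.312, 0.362 and 0.239 in H1299 with SAHA, against 0.0802, 0.0700 and 0.0790 with DMSO. SAHA libraries stood above DMSO libraries in both lines, and the second SAHA library of H1703 was far from the other two of its group. An exact two-sided permutation test gave p = 0.1 in each line, the smallest that 3 against 3 libraries allow. Any groups of this size without overlap give that value, so the test adds nothing to the ratios.

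Ordered by CPM per kilobase of merged exons, MT2A came first and MT1X second in every group. In H1703 with SAHA they had 1318 ± 310.6 and 123.1 ± 17.2 CPM per kilobase, followed by MT1F with 19.3 ± 1.68, MTF1 with 7.63 ± 1.10 and MT1A with 4.18 ± 1.71 (SD, n = 3). In H1703 with DMSO MT2A had 415.4 ± 41.9, MT1X 20.2 ± 2.41, MT1F 4.82 ± 0.885, MTF1 3.83 ± 0.272 and MT1A 1.85 ± 0.731 CPM per kilobase. In H1299 MTF1 came next after MT1X, with 7.67 ± 0.958 with SAHA and 4.35 ± 0.109 with DMSO, above MT1F and MT1A, which were at or near 0. In H1703 with DMSO the MT1F libraries, at 4.16 to 5.83, stood above the MTF1 libraries, at 3.56 to 4.11, on this scale, whereas on the authors' FPKM scale MTF1 averaged more than MT1F, so their order depends on the length used.

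Of 13 further metallothionein loci in the tables, 4 had 10 or more counts in a library: MT3, MT2P1, MT1B and MT1DP. MT3, the brain form that also binds copper, had 64, 78 and 65 counts in H1703 with SAHA, against 0, 4 and 4 with DMSO. In H1299 it had 49, 40 and 49 counts with SAHA, against 3, 0 and 2 with DMSO. MT3 was thus at the floor without SAHA in most libraries and at 2.54 to 4.53 CPM with it. It rose by 4.64 ± 0.46 on the log2 scale in H1703 (edgeR adjusted p = 1.6e-05) and by 4.67 ± 0.49 in H1299 (edgeR adjusted p = 3.57e-05), and these folds rest on 0 to 4 counts per DMSO library. MT1B, another MT1 gene of the cluster, had 12, 25 and 14 counts in H1703 with SAHA and 0 in each DMSO library, at least 5.54-fold higher (3 counts per library; edgeR adjusted p = 0.000362). MT3 and MT1B passed the low-count filter through their SAHA libraries alone, so their tests could hardly have shown a fall. With 0 DMSO counts, the direction of the MT1B test was fixed in advance. The p-values of MT3 and MT1B therefore add nothing to the counts. In H1299 MT1B had 0, 3 and 2 counts with SAHA and 0 with DMSO, within the floor.

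MT2P1, a pseudogene related to MT2A, had 52, 57 and 26 counts in H1703 with SAHA and 10, 15 and 11 with DMSO. In H1299 it had 21, 17 and 26 counts with SAHA and 18, 21 and 13 with DMSO. It rose by 1.91 ± 0.35 on the log2 scale in H1703 (edgeR adjusted p = 0.00086), and its change in H1299 was 0.28 ± 0.31 (edgeR adjusted p = 0.449). MT2P1 shares 50-base stretches with MT2A and MT1E, so its counts are uncertain. MT1DP, a pseudogene in the cluster, had 14, 17 and 13 counts in H1703 with SAHA and 14, 18 and 14 with DMSO (log2 change -0.05 ± 0.30, edgeR adjusted p = 0.894). None of the 101 stretches of 50 bases in its GENCODE transcript was absent from other genes, as an overlapping non-coding gene holds them all, so these counts cannot be assigned to MT1DP with certainty.

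The 8 metallothionein genes span 76.0 kb. Of 38 genes within 500 kb on either side, metallothionein loci such as MT3 left out, 11 could be tested in each line. In H1703 2 rose and 4 fell, and in H1299 2 rose and 2 fell, with median log2 changes of -0.13 and 0.17. Over all genes tested, 34.7% rose and 32.6% fell in H1703, and 33.3% rose and 30.4% fell in H1299. The nearest gene tested, NUP93, a nuclear pore component 45.9 kb after the cluster, had log2 changes of -0.04 in H1703 (edgeR adjusted p = 0.667) and 0.15 in H1299 (edgeR adjusted p = 0.14). BBS2, a ciliary gene 87.9 kb before it, rose by 0.54 in H1703 (edgeR adjusted p = 0.00216) and 0.42 in H1299 (edgeR adjusted p = 0.00843). NUDT21, a factor in mRNA 3′ end formation, fell by 0.38 in H1703 and by 0.56 in H1299, and CPNE2 fell by 0.68 and by 0.67. OGFOD1, an oxygenase that modifies a ribosomal protein, fell by 0.57 in H1703 (edgeR adjusted p = 0.000246), and its change in H1299 was 0.13 (edgeR adjusted p = 0.37). GNAO1, a G protein subunit gene of neurons 250.7 kb before the cluster, had 10.6 ± 0.420 CPM in H1703 with SAHA and 0.546 ± 0.0975 CPM with DMSO, and 25.9 ± 2.00 CPM in H1299 with SAHA and 0.806 ± 0.222 CPM with DMSO (SD, n = 3 each; edgeR adjusted p = 1.31e-07 in H1703 and 1.68e-07 in H1299). The DMSO libraries had 7, 11 and 8 GNAO1 counts in H1703 and 14, 17 and 10 in H1299, near the filter's minimum count of 10. In H1703 GNAO1 thus passed the filter through its SAHA libraries, which favoured a rise. Apart from GNAO1, none of these 11 genes changed by as much as MT1X in either line.

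**Figure D4:**
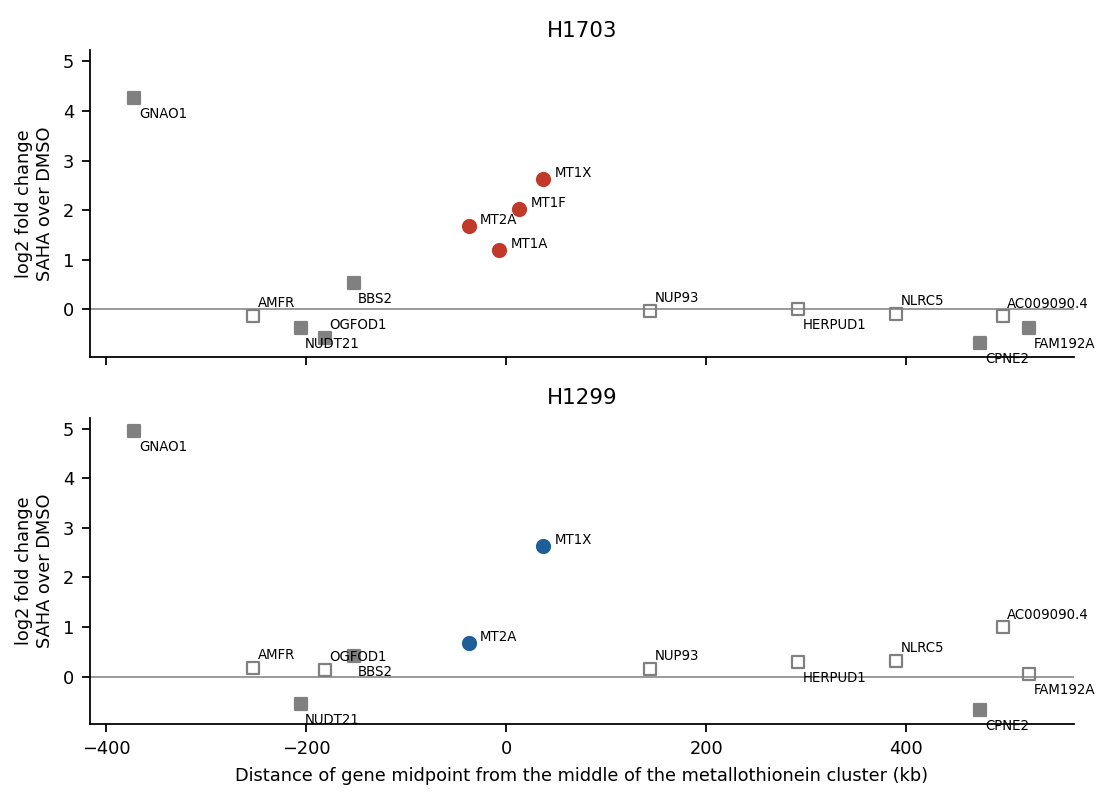
Log2 fold change of SAHA over DMSO for the genes tested around the metallothionein cluster, by distance of the gene's midpoint from the middle of the cluster in kb, with H1703 above H1299; coloured circles are metallothionein genes, grey squares neighbours, and open squares neighbours not called. GNAO1 lay at 4.27 in H1703 and 4.95 in H1299, and the other neighbours tested lay between -0.68 and 0.54 in H1703 and between -0.67 and 0.99 in H1299.

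Zinc transport genes rose and fell. Of all genes tested, 34.7% rose and 32.6% fell in H1703 and 33.3% rose and 30.4% fell in H1299, and the list counts that follow stand against these shares. Among 10 exporters of the SLC30 family, 8 were tested in H1703, of which 5 rose and 1 fell, and 7 in H1299, of which 2 rose and 2 fell, with median log2 changes of 0.71 and 0.13. The exporters tested in H1703 include SLC30A2, with 67 counts over the SAHA libraries and 0 with DMSO. SLC30A2 passed the low-count filter through SAHA libraries alone, so its direction was fixed in advance. SLC30A1, the plasma membrane exporter and an MTF1 target, had 180.6, 179.4 and 236.1 CPM in H1703 with SAHA, against 91.7, 93.2 and 96.8 CPM with DMSO. For H1299 the values were 69.5, 64.0 and 57.6 CPM with SAHA, against 29.8, 30.3 and 27.4 CPM with DMSO. Each SAHA group was about the same multiple of its DMSO group: SLC30A1 rose by 1.10 ± 0.11 in H1703 (edgeR adjusted p = 1.91e-05) and by 1.07 ± 0.10 in H1299 (edgeR adjusted p = 2.02e-05), and the difference of these responses was -0.04 ± 0.15 (edgeR adjusted p = 0.872). SLC30A3, the exporter of synaptic vesicles, rose 6.28-fold in H1703 and 9.83-fold in H1299, while SLC30A5, a transporter of the secretory pathway, fell by 0.44 and by 0.46. SLC30A6, its partner, fell by 0.88 in H1299 (edgeR adjusted p = 0.000497) and had -0.24 in H1703 (edgeR adjusted p = 0.106, and called without the third SAHA library at -0.39, adjusted p = 0.00202).

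Among 14 importers of the SLC39 family, 11 were tested in H1703, of which 2 rose and 3 fell, and 12 in H1299, of which 5 rose and 3 fell, with median log2 changes of 0.10 and 0.04. The importers tested in H1299 include SLC39A2, with 61 counts over the SAHA libraries and 0 with DMSO. SLC39A2 passed the low-count filter through SAHA libraries alone, so its direction was fixed in advance. SLC39A10, a plasma membrane importer, had 42.7 ± 7.48 CPM in H1703 with SAHA and 89.5 ± 4.05 CPM with DMSO, and 28.6 ± 4.48 CPM in H1299 with SAHA and 66.7 ± 3.59 CPM with DMSO (SD, n = 3 each; edgeR adjusted p = 4.49e-05 in H1703 and 2.18e-05 in H1299). SLC39A8, an importer of zinc, manganese and cadmium, fell by 0.56 in H1703 and by 0.95 in H1299. SLC39A14, which also carries iron, rose by 0.58 in H1703 and by 0.31 in H1299. SLC39A9 rose by 0.60 in H1703, a call lost with the replicate number as a block (0.58, edgeR adjusted p = 0.0612), without the low-count filter (0.58, adjusted p = 0.0703), and without the first DMSO library (0.61, adjusted p = 0.0555) or the third (0.52, adjusted p = 0.0721), and by 0.45 in H1299. SLC39A7, which releases zinc from the endoplasmic reticulum, rose by 0.56 in H1299 and had 0.02 in H1703 (edgeR adjusted p = 0.791).

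**Figure D5:**
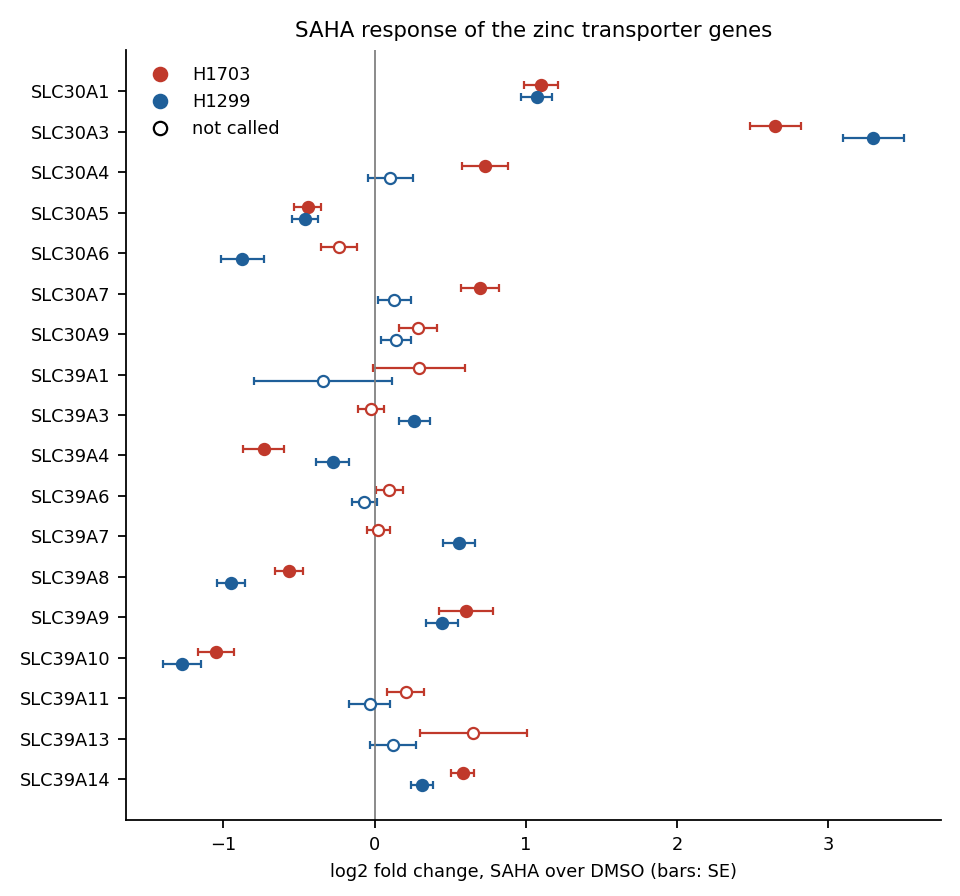
Log2 fold change of SAHA over DMSO with its SE for the zinc exporter (SLC30) and importer (SLC39) genes tested, H1703 above H1299, with open circles for genes not called. SLC30A2 and SLC39A2, tested in 1 line each against DMSO groups at 0, are not drawn.

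Of 11 copper genes, 5 rose and 1 fell in H1703 and 6 rose and 2 fell in H1299, where 34.7% of all genes tested rose and 32.6% fell in H1703 and 33.3% rose and 30.4% fell in H1299. ATOX1, the copper chaperone of the secretory pathway, rose by 1.40 ± 0.10 in H1703 (edgeR adjusted p = 1.42e-06) and by 1.06 ± 0.09 in H1299 (edgeR adjusted p = 8.38e-06), and SLC31A2, a vesicular copper transporter, by 2.16 and 1.29. SOD1, the copper- and zinc-containing superoxide dismutase, fell by 0.80 in H1703 and by 0.57 in H1299. SLC31A1, the main copper importer, rose by 0.68 in H1299 and had 0.01 in H1703 (edgeR adjusted p = 0.895). SCO2, a copper chaperone of cytochrome oxidase with 2 gene IDs in the tables, of which the one with more counts was used, fell by 0.49 in H1299 and had -0.12 in H1703 (edgeR adjusted p = 0.51). Of 8 iron genes, 4 rose and 4 fell in H1703, and 4 rose and 3 fell in H1299, against 67.4% and 63.8% of all genes called in either direction. SLC40A1, the iron exporter ferroportin, rose by 1.64 in H1703 and by 1.69 in H1299, NCOA4, the ferritin receptor for autophagy, by 0.73 and 0.59, and TFRC, the transferrin receptor, fell by 0.42 and by 1.22. IREB2, an iron-responsive RNA-binding protein, fell by 0.55 in H1703 and by 0.35 in H1299, and its H1299 call was lost without the second SAHA library (-0.27, edgeR adjusted p = 0.0638), the third SAHA library (-0.32, adjusted p = 0.0658) or the first DMSO library (-0.36, adjusted p = 0.0529). ACO1, its relative, fell by 0.54 in H1703 and had 0.19 in H1299 (edgeR adjusted p = 0.0579). That H1299 value was called with RLE scaling (adjusted p = 0.0438), without the first SAHA library (0.0336) and in the fit over 12 libraries (0.00592).

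Of 9 further regulators linked to metallothionein transcription, 1 rose and 5 fell in each line, with median log2 changes of -0.49 in H1703 and -0.31 in H1299. Among all genes tested, 34.7% rose and 32.6% fell in H1703, and 33.3% rose and 30.4% fell in H1299. USF2, a basic helix-loop-helix factor, fell by 1.58 in H1703 and by 1.18 in H1299. KEAP1, which marks the antioxidant factor NFE2L2 for degradation, had 42.7 ± 4.94 CPM in H1703 with SAHA and 126.7 ± 13.9 CPM with DMSO, and 67.9 ± 1.33 CPM in H1299 with SAHA and 137.4 ± 9.22 CPM with DMSO (SD, n = 3 each; edgeR adjusted p = 2.08e-06 in H1703 and 5.08e-06 in H1299). SP1, a general activator, fell by 0.66 and by 0.70, and STAT3 rose by 0.42 and by 0.32. MTF1 and STAT3 thus rose in both lines while SP1, USF2 and KEAP1 fell.

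Glucocorticoids also induce metallothioneins. Of 7 glucocorticoid-induced genes, 6 were tested in each line, and 5 rose and 1 fell in H1703 and 4 rose and 0 fell in H1299. The shares over all genes tested were 34.7% higher and 32.6% lower in H1703, and 33.3% higher and 30.4% lower in H1299. TSC22D3 had 87 counts over the H1299 SAHA libraries and 6 over the H1299 DMSO libraries. In H1299 it passed the low-count filter through SAHA libraries alone, which favoured a rise. SGK1, a kinase gene, had 72.7 ± 7.71 CPM in H1703 with SAHA and 8.73 ± 0.795 CPM with DMSO, and 76.0 ± 1.51 CPM in H1299 with SAHA and 17.3 ± 2.94 CPM with DMSO (SD, n = 3 each; edgeR adjusted p = 5.12e-08 in H1703 and 1.65e-06 in H1299). KLF9 rose by 1.63 in H1703 and by 0.83 in H1299. DUSP1, a phosphatase gene, rose by 0.79 and by 2.35, with a smaller response in H1703 (difference -1.63 ± 0.11, edgeR adjusted p = 7.56e-08). FKBP5, a chaperone gene widely used as a readout of the glucocorticoid receptor, fell by 0.64 in H1703 and had -0.11 in H1299 (edgeR adjusted p = 0.411).

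Of 8 genes of the metal and oxidant stress response, 5 rose and 2 fell in H1703, and 7 rose and 0 fell in H1299, with median log2 changes of 0.59 and 0.74. The shares over all genes were 34.7% higher and 32.6% lower in H1703, and 33.3% higher and 30.4% lower in H1299. SRXN1, which repairs oxidised peroxiredoxins, rose by 1.99 in H1703 and by 2.09 in H1299. HMOX1, haem oxygenase, had 173.2, 187.1 and 160.1 CPM in H1703 with SAHA, against 193.5, 189.5 and 190.5 CPM with DMSO. In H1299 it had 90.3, 100.6 and 101.1 CPM with SAHA, against 33.7, 35.8 and 30.6 CPM with DMSO. HMOX1 thus differed from MT1X and MTF1 in that it rose in H1299 (1.49 ± 0.10, edgeR adjusted p = 2.05e-06) and was not called in H1703 (-0.12 ± 0.08, edgeR adjusted p = 0.182), and the responses differed by -1.69 ± 0.12 (edgeR adjusted p = 1.36e-07). GCLM, of glutathione synthesis, fell by 0.30 in H1703 and rose by 0.78 in H1299. SLC7A11, the cystine importer, fell by 2.31 in H1703 and had -0.50 in H1299 (edgeR adjusted p = 0.0663). The H1299 value was called with the replicate number as a block (-0.52, adjusted p = 0.01), without the first SAHA library (-0.74, adjusted p = 0.00708) and in the fit over 12 libraries (-0.44, adjusted p = 0.0337). HSPA1A, a heat shock gene, rose by 0.99 and by 0.57, although its reads are hard to tell from those of its near-copy HSPA1B.

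The genes whose pattern over the 12 libraries was most like that of MT2A and MT1X were found by the root mean square difference of log2 CPM after each gene was centred on its mean, among 10768 genes. For MT1X the most alike was EVI5L at 0.162, against a median of 1.52 over those genes. EVI5L averaged 103.7 CPM in H1703 with SAHA and 16.5 CPM with DMSO, and 180.3 CPM in H1299 with SAHA and 31.0 CPM with DMSO. LSR followed at 0.332 and OGDHL at 0.335. For MT2A the most alike were NIPAL3 at 0.228, OSTF1 at 0.241 and ATP6V1D at 0.242, against a median of 0.93. MT1X was at 0.837 from MT2A, under that median. This measure counts the size of a change, and MT1X rose more with SAHA than MT2A in both lines. The genes named were picked as the closest by the same measure, so their smaller distances are no comparison with MT1X.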

How the data were processed

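Gene counts and FPKM were deposited for all 12 libraries. Per the submitters' processing notes, the tools were edgeR 3.30.3, StringTie 1.3.3b, HISAT2 2.1.0, fastp and FastQC 0.11.9, and the build was GRCh38. The sources used here do not say how reads shared by genes were counted, and the labels differ on whether the libraries keep strand. The authors' deposited counts were used as whole numbers. The authors' deposited FPKM equals counts over library total and gene length within 1% for 100.0% of 201185 values, and for 7.84% of genes that length exceeds the genomic span.

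Each line was tested with edgeR 4.0.16 (R 4.3.3; filterByExpr with a minimum count of 10 and total of 15, TMM, robust quasi-likelihood), with Benjamini-Hochberg adjustment over all genes tested and a threshold of 0.05. DMSO between lines, and the difference of responses, came from 1 fit over 12 libraries. SE is the log2 change over the square root of F. Columns marked NC were read as DMSO. Total counts of 14416126 to 19408852 per library set the precision of low genes.

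The members and gene lists were chosen with earlier results of these data known. Per list and comparison, up to 2 called genes in each direction were named, those of lowest adjusted p whose mean log2 CPM was at least 1. The labels carry a batch tag with repeats 1 to 3 in every group. The tests reported were unpaired and made no use of these numbers, which entered only in the replicate block among the alternatives. Same-numbered libraries had correlations of deviations between -0.031 and 0.0333. Alternatives were RLE scaling, DESeq2 1.42.0, no filter, a replicate block, leaving out each library, other libraries in the fit, a 250 kb window, shares by counts and, chosen after seeing the data, shares per merged exon base. Fits were tested on simulated data.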

Additional observations from a re-analysis of the deposited data

Results flagged for a closer look

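The SAHA response of MT2A differed between the lines by a test of the difference itself: it was larger in H1703 by 0.927 on the log2 scale (edgeR adjusted p = 0.0269), with all 3 SAHA libraries above all 3 DMSO libraries in each line. The call was lost in the alternatives given with that result.

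The response of the pseudogene MT2P1 was also larger in H1703 by the same test, by 1.55 on the log2 scale (edgeR adjusted p = 0.0214). It was lost without the second DMSO library of H1299 (adjusted p = 0.0575), the first (0.054) or the second SAHA library of H1703 (0.0503) or the first DMSO library of H1703 (0.0515), with a range of 0.0053 to 0.0575 over all alternatives. MT2P1 shares sequence with MT2A, and the part of shared reads in this difference was not tested.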

How the results depend on the processing

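Of the values for comparisons and counts, 215 stayed within 1.5 times the value reported for a count, or within 1 SD for a share, and 18 moved; of the values for single genes, 1138 kept their direction and side of the threshold, 24 lost the call, 7 gained it and 13 changed sign, all without a call. The genes called over all alternatives numbered 11004 to 12866 in H1703, 10346 to 12296 in H1299, 12023 to 13154 between DMSO groups and 5934 to 6806 for the difference of responses. With the replicate number as a block, which follows the batch tag in the labels, SLC39A9 in H1703 lost its call (0.58 on the log2 scale, edgeR adjusted p = 0.0612) and SLC7A11 in H1299 gained one (adjusted p = 0.01); among the results reported it changed no other call, and the MT2A difference of responses was 0.94 (adjusted p = 0.00495).

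The count of metallothionein genes and MTF1 called for the difference of responses was 0 without the low-count filter and 0 to 1 with each library left out. With the DMSO libraries fitted alone, 1 was higher in H1703, as MT1A was not tested there. Genes around the cluster called higher in H1299 were 5 in the fit over 12 libraries; within 250 kb, 1 was higher and 1 lower in H1299 and 1 higher and 2 lower in H1703, fewer genes being tested. By merged exon bases the MT2A share was 89.5% (H1703 with SAHA), 93.9% (H1703 with DMSO), 86.2% (H1299 with SAHA) and 96.1% (H1299 with DMSO).

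The sign changes were of uncalled values, with the cause not tested. With each library left out in turn, the log2 change ran between -0.0071 and 0.22 for OGFOD1 in H1299, and in H1703 between -0.12 and 0.0047 for MT1DP, -0.24 and 0.046 for SCO2, -0.065 and 0.048 for SLC31A1 and -0.018 and 0.076 for SLC39A7. SLC31A1 was also at -0.010 without the filter and -0.0035 in the fit over 12 libraries. The difference of responses ran between -0.20 and 0.013 for MT1X and between -0.78 and 0.45 for MT3. Low counts limit what can be read for MT1A, MT3, MT1B, MT2P1 and the genes at 0.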
